A study of Mus musculus with 16 samples.

Results

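Fam134b KO myotubes were compared with WT myotubes, which make up 8 of the 16 samples in a study of the mouse myoblast line C2C12. The members are the 4 KO and 4 WT samples whose titles give that genotype and the differentiated stage. Of the 31053 genes in the deposited table, 10269 reached 10 normalized counts in 4 or more of these 8 samples and were tested. A normalized count is the number of reads on a gene divided by a factor of its sample, so values can be compared between samples for 1 gene but not between genes of unlike length. Where a gene is called the most abundant, this means only the highest mean normalized count in WT myotubes. The remaining 8 samples are KO and WT myoblasts, used here to ask whether a difference between genotypes changed with the stage and in 1 alternative fit.

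C2C12 is an established line of mouse skeletal muscle myoblasts that forms myotubes in culture. WT cells carried no edit, and KO cells were made with a lentivirus that delivers Cas9 and guides against Fam134b, followed by antibiotic selection. All cells were grown in the same serum-containing medium, and myotubes formed spontaneously once the cultures were confluent. The methods describe neither the isolation of single clones nor a control line that went through transduction and selection, so the deletion and the handling of the KO line cannot be told apart. The labels call the 4 samples of a group biological replicates without naming separate lines, and the p-values measure the spread between these samples.

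Fam134b, also called Retreg1, is a membrane protein of the endoplasmic reticulum (ER) that bends ER sheets and binds LC3 and GABARAP proteins on autophagic membranes, which sends pieces of ER to the lysosome in a process named ER-phagy. When myoblasts differentiate they leave the cell cycle, the factors Myod1 and Myog switch on the genes of the contractile apparatus, and the cells fuse. Their ER is rebuilt into the sarcoplasmic reticulum, which stores the calcium released at the triads to start contraction.

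The 8 libraries differed in depth and spread. WT myotubes held 2686680 to 3226387 reads on genes, whereas KO samples 2 and 4 held 1790524 and 1484750, fewer than the 2757497 and 2947336 of KO samples 1 and 3. Samples deviated from the mean of their group by 0.249 to 0.413 (root mean square over genes, log2 scale) in WT and by 0.424 to 0.644 in KO myotubes, and pairs of replicates correlated at 0.924 to 0.975 and 0.876 to 0.948. Across genes the median SD was 0.32 in WT and 0.42 in KO myotubes, with the larger SD on the KO side for 66.8% of genes. A level of 3 reads, the smallest taken as detected, equalled a normalized count of 2.59 to 5.99.

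Fam134b mRNA itself (ENSMUSG00000022270) had normalized counts of 287, 146, 263 and 232 in WT myotubes and 31.9, 56.9, 50.4 and 28.0 in KO myotubes. All KO samples lay well below all WT samples, at 14 to 56 reads each, and the remaining transcript was seen in every KO sample. The means were 232 ± 61.6 and 41.8 ± 14.0 (SD, n = 4 each), a log2 difference of -2.46 (standard error 0.29) with a limma adjusted p of 5.78e-05, adjusted by the Benjamini-Hochberg method over all genes tested. A two-sided exact permutation test gave p = 0.0286, the smallest that 4 samples against 4 allow. The difference did not change detectably with the stage (interaction 0.40, limma adjusted p = 0.61). The counts are sums over all isoforms of the gene.

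Across all genes tested, 1496 (14.6%) were called at a limma adjusted p under 0.05, 644 of them higher (6.27%) and 852 lower (8.30%) in KO myotubes. The 4 KO samples lay entirely above or below the 4 WT samples for 1990 genes (19.4%), with 895 above (8.72%) and 1095 below (10.7%). Of the called genes, 1311 were among these and 185 had groups that overlapped. Before adjustment 2903 genes had a p under 0.05, and 1028 of the called genes differed by at least 1 on the log2 scale, 405 higher and 623 lower. The median log2 difference over all genes tested was -0.06. Among the lists examined other than cell type markers, those of the thin filament and of the sarcoplasmic reticulum held the largest shares of lower genes, and those of collagens and matrix proteins the largest shares of higher genes.

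**Figure D1:**
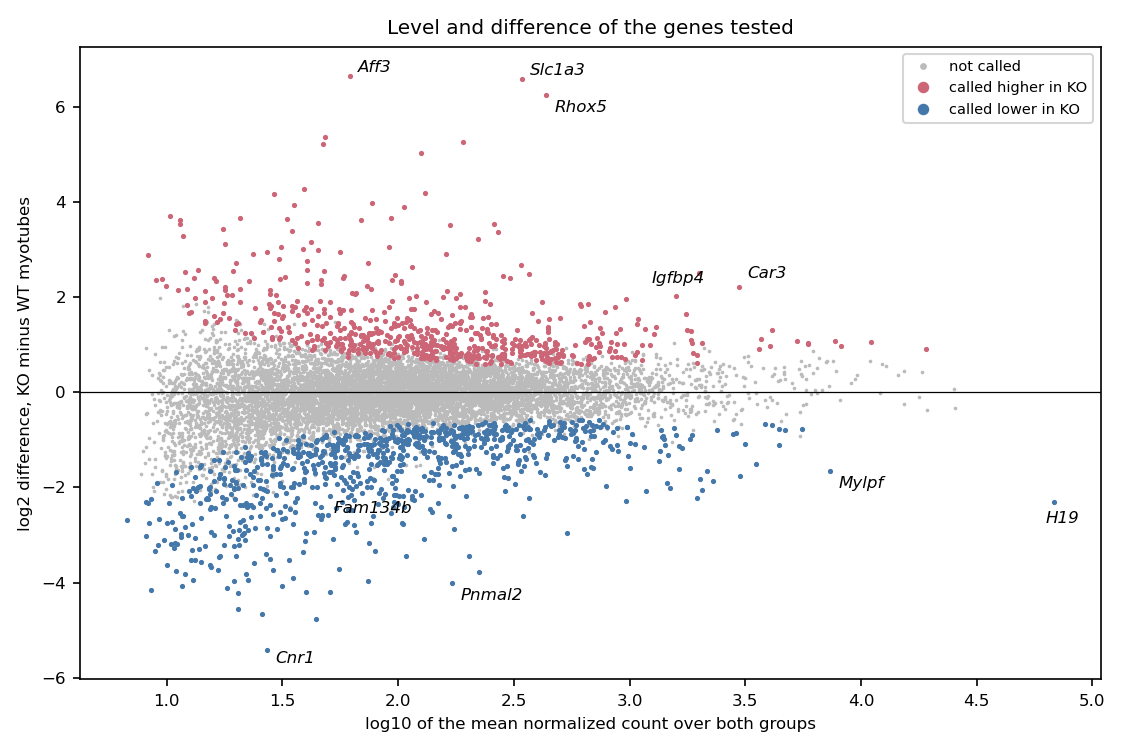
Each point is 1 of the 10269 genes tested, with the log10 of its mean normalized count on the horizontal and the log2 difference (KO minus WT myotubes) on the vertical axis. Red points are the 644 genes called higher, blue points the 852 called lower and grey points the rest. H19 stands alone at the right with a log2 difference of -2.31, and Aff3, Slc1a3 and Rhox5 lie at the top.

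The labelled stage was checked on markers first. Every one of the 8 samples expressed embryonic myosin heavy chain Myh3, at 3199 to 5654 normalized counts in WT and 1718 to 2207 in KO samples, and muscle creatine kinase Ckm, at 1008 to 1491 and 248 to 371. Both KO and WT cultures held transcripts of differentiated muscle, at lower levels in KO. In bulk RNA, fewer myotubes in a culture and less RNA of these genes per myotube cannot be told apart.

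The genes of the contractile apparatus fell together in KO myotubes. Among 17 thick filament genes tested, 14 were called lower and 0 higher, with a median log2 difference of -1.39, and among 18 thin filament genes 15 were lower and 0 higher, with a median of -1.19. All 17 thick and all 18 thin filament genes had a negative difference. For comparison, 8.30% of all genes tested were called lower. Leaving out any 1 sample gave counts of 10 to 14 and 11 to 14, both lowest without WT sample 3.

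Mylpf, the fast regulatory light chain of myosin, had normalized counts of 12034, 8196, 14198 and 10250 in WT and 2736, 4439, 3498 and 3355 in KO myotubes. Every KO sample lay far below every WT sample, and the log2 difference was -1.66 (standard error 0.25, limma adjusted p = 3.56e-04). Tnnc2, the calcium-binding troponin C of fast fibers, measured 4007, 4112, 5706 and 4638 in WT and 993, 1507, 1416 and 1555 in KO samples. It differed by -1.76 (standard error 0.21, limma adjusted p = 8.20e-05), and its groups lay far apart. Tnnt3, a fast troponin T, was at 1507, 1671, 2786 and 1613 against 283, 395, 609 and 530, the most negative called difference among the thin filament genes (-2.07, limma adjusted p = 1.03e-04).

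Other abundant thin filament genes followed. Tnnt2, the troponin T of heart and developing muscle, had 5238 ± 1088 normalized counts in WT and 1833 ± 371 in KO myotubes (SD, n = 4 each), a log2 difference of -1.51. Tpm2, a tropomyosin that lies along the actin filament, had 6014 ± 1163 and 2801 ± 467, a difference of -1.10. In both genes no KO sample reached the lowest WT sample. Acta1, skeletal muscle actin, was near the threshold, with 5961 ± 1467 and 3460 ± 891 normalized counts and a limma adjusted p of 0.0498.

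Slow and fast isoforms were lower alike. The genes Tnni1 (-1.86), Tnnt1 (-1.91) and Tnnc1 (-1.82), which form the troponin complex of slow skeletal fibers, and the fast genes Tnni2 (-2.06), Tnnt3 and Tnnc2 were called lower. The slow myosin heavy chain Myh7 had 600 ± 238 normalized counts in WT and 96.1 ± 33.1 in KO myotubes, a log2 difference of -2.61. The heavy chains of developing and fast fibers, Myh3 (-1.10), Myh8 (-1.33) and Myh4 (-1.38), had smaller differences, all called by limma. Myh7b, a further myosin heavy chain at 12.6 to 38.9 in WT, was at 14.5, 0, 0.90 and 0 in KO samples, with groups that overlapped, and its call was lost without WT sample 1 or WT sample 3.

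Z-disc and intermediate filament genes, which anchor and align the sarcomeres, showed the same pattern, with 16 of 22 tested called lower, 0 higher and a median of -1.35. Actn2, the alpha-actinin that crosslinks actin at the Z-disc, had 122, 86.4, 122 and 71.3 normalized counts in WT and 13.6, 0, 10.8 and 18.0 in KO samples. It was the most negative called member at -3.71 (standard error 0.70, limma adjusted p = 0.00237), with KO sample 2 at no read. Synpo2l, an actin-binding protein of the Z-disc, was at 1462, 1545, 1337 and 1285 in WT and 524, 429, 597 and 689 in KO samples. Des, the muscle intermediate filament desmin, had 1010 ± 163 and 304 ± 11.1 (SD, n = 4 each), a log2 difference of -1.71, with the KO samples close together at 296 to 319.

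The apparatus of excitation and calcium release, the specialised ER of muscle, was lower as well. Of 24 genes of the sarcoplasmic reticulum and triad tested, 20 were called lower and 0 higher, with a median log2 difference of -1.41, and between 18 and 22 were lower with 1 sample left out. The 4 KO samples were alike here, with list medians of -1.34, -1.30, -1.40 and -1.33 relative to the WT mean. Cacna1s, the voltage sensor of the T-tubule, had normalized counts of 167, 92.7, 169 and 105 in WT and 29.0, 14.6, 21.6 and 12 in KO myotubes. This was the most negative called member, at -2.75 (standard error 0.33, limma adjusted p = 6.88e-05).

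Ryr1, the calcium release channel that Cacna1s opens, had 157 ± 48.9 normalized counts in WT and 37.7 ± 11.3 in KO myotubes (log2 difference -2.01, limma adjusted p = 4.64e-04). The calcium pumps that refill the store were both lower, Atp2a1 by -1.60 and Atp2a2, the form shared with non-muscle ER, by -1.04, the latter with overlapping groups. The calsequestrin genes Casq2 (-1.32) and Casq1 (-1.85), whose proteins bind calcium inside the store, were also called lower, the latter with overlapping groups. Bin1, which shapes T-tubule membrane, was the most abundant member in WT, with 2532, 1956, 2787 and 2327 normalized counts against 1326, 1335, 1465 and 805 in KO samples (-0.99, limma adjusted p = 0.00766).

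The postsynaptic genes of the neuromuscular junction were called lower in 7 of 9 cases, with a median of -0.97, and between 4 and 6 were lower with 1 sample left out (4 without WT sample 4 or without KO sample 3). Receptor subunits Chrna1 (-0.97), Chrnb1 (-1.48), Chrnd (-1.47) and Chrng (-1.14) were among them. Musk, the receptor kinase that gathers acetylcholine receptors, was at 26.8, 18.0, 47.4 and 28.7 in WT and 4.84, 11.7, 5.40 and 16 in KO samples, all below WT, and lost its call in 5 of the 8 fits with 1 sample left out. Rapsn, which clusters the receptors, had the smallest called difference in this list (-0.69, limma adjusted p = 0.0296), with 598 to 865 normalized counts in WT and 366 to 527 in KO samples, and it too lost its call in 5 of these fits.

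Of 16 genes of the dystrophin-glycoprotein complex, which ties the fiber to its matrix, 5 were called lower (31.25%, against 8.30% of all genes) and 0 higher. Only 3 were lower without WT sample 1 or without WT sample 3. Sntb1, a syntrophin, fell from 116 ± 41.6 to 29.9 ± 4.08 (SD, n = 4 each), while its most abundant member Dag1, dystroglycan, had 968 ± 214 and 952 ± 229 normalized counts and a limma adjusted p of 0.95. Muscle energy genes were called lower in 12 of 20 cases, with a median of -1.09. Ckm had a log2 difference of -1.98 and myoglobin Mb of -2.0, whereas Pkm, a pyruvate kinase with 6324 ± 2346 and 4604 ± 1242 normalized counts, was not called (limma adjusted p = 0.36). Fabp3, a fatty acid binding protein, had 15.9 to 22.5 normalized counts in WT and 8.10 or less in every KO sample. Gapdh, at a low 181 ± 68.5 normalized counts in WT and 29.2 ± 21.3 in KO, shared 45.0% of the last 500 bases of its transcripts with other genes in stretches of 31 bases, and its counts are uncertain. The same holds for Pkm (42.8%) and Fabp3 (36.2%).

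In the 7 lists of muscle structure, excitation, synapse and energy together, 126 genes were tested and 89 were called lower (70.6%), with 0 higher by limma, also at an unadjusted p under 0.05. Promoters of 65 of the 89 were found in the RefSeq table (build GRCm38.p6, 250 bases before to 50 after the start). Of the 78 promoters of these genes, 35 (44.9%) held CAGCTG, an E-box of the kind that Myod1 and Myog bind and that reads the same on both strands, against 16.3% of all 32817 promoters in the table. The consensus of the muscle factor MEF2, searched on both strands, was found in 15.4% of the 78 and in 3.19% of all promoters. Among the 119 promoters of all members of these lists that were tested, called or not, 36.1% held CAGCTG and 11.8% the MEF2 consensus. A match is a description of the letters only. The following are the promoters of the 4 most abundant of these genes in WT myotubes, among those with groups that did not overlap, that hold CAGCTG, in the orientation of the gene and with the E-box in capitals.
Mylpf, chr7:127211358-127211657, plus strand: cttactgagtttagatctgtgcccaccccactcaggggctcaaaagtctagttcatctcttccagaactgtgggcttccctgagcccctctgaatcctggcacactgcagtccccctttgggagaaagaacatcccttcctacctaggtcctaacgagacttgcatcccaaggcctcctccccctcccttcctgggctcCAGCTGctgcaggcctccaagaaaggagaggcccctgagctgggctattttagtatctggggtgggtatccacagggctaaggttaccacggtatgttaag
Tpm2, chr4:43523505-43523804, minus strand: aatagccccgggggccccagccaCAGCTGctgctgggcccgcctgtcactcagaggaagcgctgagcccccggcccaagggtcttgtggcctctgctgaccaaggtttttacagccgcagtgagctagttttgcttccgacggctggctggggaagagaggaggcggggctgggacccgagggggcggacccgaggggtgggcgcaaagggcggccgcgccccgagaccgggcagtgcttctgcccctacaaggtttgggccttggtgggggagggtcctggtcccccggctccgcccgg
Acta1, chr8:123894726-123895025, minus strand: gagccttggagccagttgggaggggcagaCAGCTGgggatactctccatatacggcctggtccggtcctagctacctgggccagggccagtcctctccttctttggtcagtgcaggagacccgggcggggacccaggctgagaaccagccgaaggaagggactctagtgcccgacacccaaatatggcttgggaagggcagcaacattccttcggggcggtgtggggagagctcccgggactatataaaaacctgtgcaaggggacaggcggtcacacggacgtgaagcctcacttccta
Tnnt2, chr1:135836084-135836383, plus strand: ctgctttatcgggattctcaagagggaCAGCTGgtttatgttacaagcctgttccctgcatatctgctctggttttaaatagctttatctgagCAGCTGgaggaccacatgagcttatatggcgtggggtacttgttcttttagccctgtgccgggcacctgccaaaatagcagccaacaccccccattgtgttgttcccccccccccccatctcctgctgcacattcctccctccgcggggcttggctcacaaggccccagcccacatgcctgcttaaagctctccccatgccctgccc
The E-box starts 51 bases before the start site in Mylpf, 227 in Tpm2 and 221 in Acta1, and Tnnt2 holds a pair of them.

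**Figure D2:**
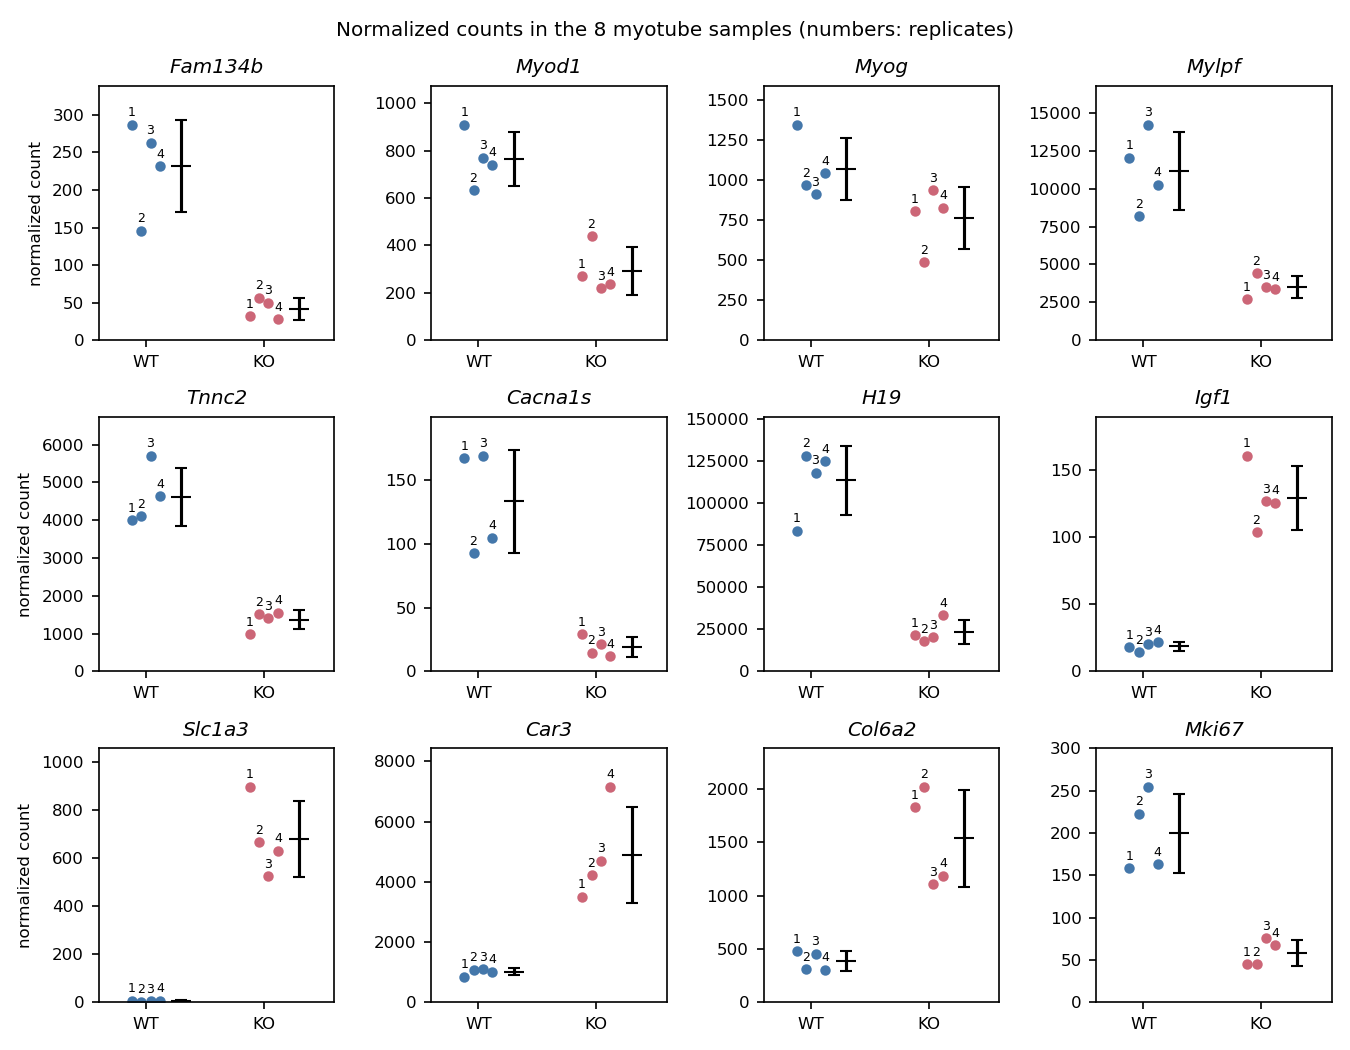
Normalized counts of 12 genes in each of the 8 myotube samples, with the replicate number above each point and the mean and SD (n = 4) as a bar beside each group. For Fam134b, Myod1, Mylpf, Tnnc2, Cacna1s, H19 and Mki67 every KO sample lies below every WT sample, for Igf1, Slc1a3, Car3 and Col6a2 above, and for Myog the groups overlap.

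The factors that drive the muscle program were lower in part. Of 18 myogenic transcription factors and cofactors tested, 8 were called lower (44.4%, against 8.30% of all genes) and 0 higher, with a median of -0.47. In 5 the difference was positive, up to 1.48, and 2 were higher at an unadjusted limma p under 0.05. With 1 sample left out, 6 to 8 were called lower and 0 to 1 higher. Myod1, the bHLH factor that commits cells to muscle, had normalized counts of 908, 632, 770 and 740 in WT and 271, 439, 220 and 238 in KO myotubes, a log2 difference of -1.43 (standard error 0.23, limma adjusted p = 6.69e-04). Myog, the bHLH factor that carries out differentiation, was at 1347, 969, 915 and 1043 in WT and 806, 487, 940 and 829 in KO myotubes. KO sample 3 lay above WT sample 3, and Myog was not called (log2 difference -0.51, limma adjusted p = 0.15).

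The partners of these factors differed among themselves. Mef2c had 99.2 ± 39.1 normalized counts in WT and 23.8 ± 6.52 in KO myotubes, a log2 difference of -1.98, while Mef2a (-0.32) and Mef2d (-0.35) were not called. Smyd1, a methyltransferase needed for sarcomere assembly, differed by -1.72, and Tead4, a factor of the Hippo pathway, by -1.96. Rbfox1 and Rbm24, splicing regulators of muscle, were called lower at -2.73 and -2.42, the former from 10.9 to 24.2 normalized counts in WT to 5.99 or less in KO, a call lost without WT sample 2 or 3. Myf5 and Pax3, factors of undifferentiated myoblasts, had differences of -0.21 and 0.69 and were not called.

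Among 15 repressors of these bHLH factors tested, 2 fell (13.3%) and 1 rose (6.67%), near the 8.30% and 6.27% of all genes. Heyl, a target and effector of Notch, had normalized counts of 378, 416, 362 and 519 in WT and 33.9, 36.5, 15.3 and 38.0 in KO myotubes. The groups lay far apart, with a log2 difference of -3.78 (standard error 0.28, limma adjusted p = 8.28e-07). Its relative Hey1 differed by -3.13. Snai2, a zinc finger repressor that competes for E-boxes, was higher, with 183 ± 34.9 in WT and 392 ± 27.9 in KO myotubes (SD, n = 4 each). Across the Notch pathway 4 of 12 genes were called lower (33.3%, against 8.30% of all genes), the others being the receptor Notch3 (-1.12) and the ligand Jag2 (-1.42).

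Fusion and adhesion genes were mixed, with 7 of 17 called lower (41.2%, against 8.30% of all genes) and 2 higher (11.8%, against 6.27%). Tmem8c, the fusion protein myomaker, had 2108 ± 351 normalized counts in WT and 838 ± 66.8 in KO myotubes (log2 difference -1.32), and Gm7325, its partner myomixer, differed by -1.68. The adhesion molecules Ncam1 (-1.17), Cdh15 (-1.60), Jam2 (-1.12) and Cdh2 (-0.85) were lower too. Ncam1 was at 2777, 2307, 2394 and 1805 in WT against 1326, 928, 942 and 939 in KO samples. Cav1, the caveolin of most non-muscle cells, rose from 268 ± 28.8 to 972 ± 249 (1.82, limma adjusted p = 5.19e-05), as did Myof, a membrane repair protein (0.63, limma adjusted p = 0.0323). The higher count fell to 1 in 5 of the 8 fits that left out a sample, among them the fit without WT sample 2.

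**Figure D3:**
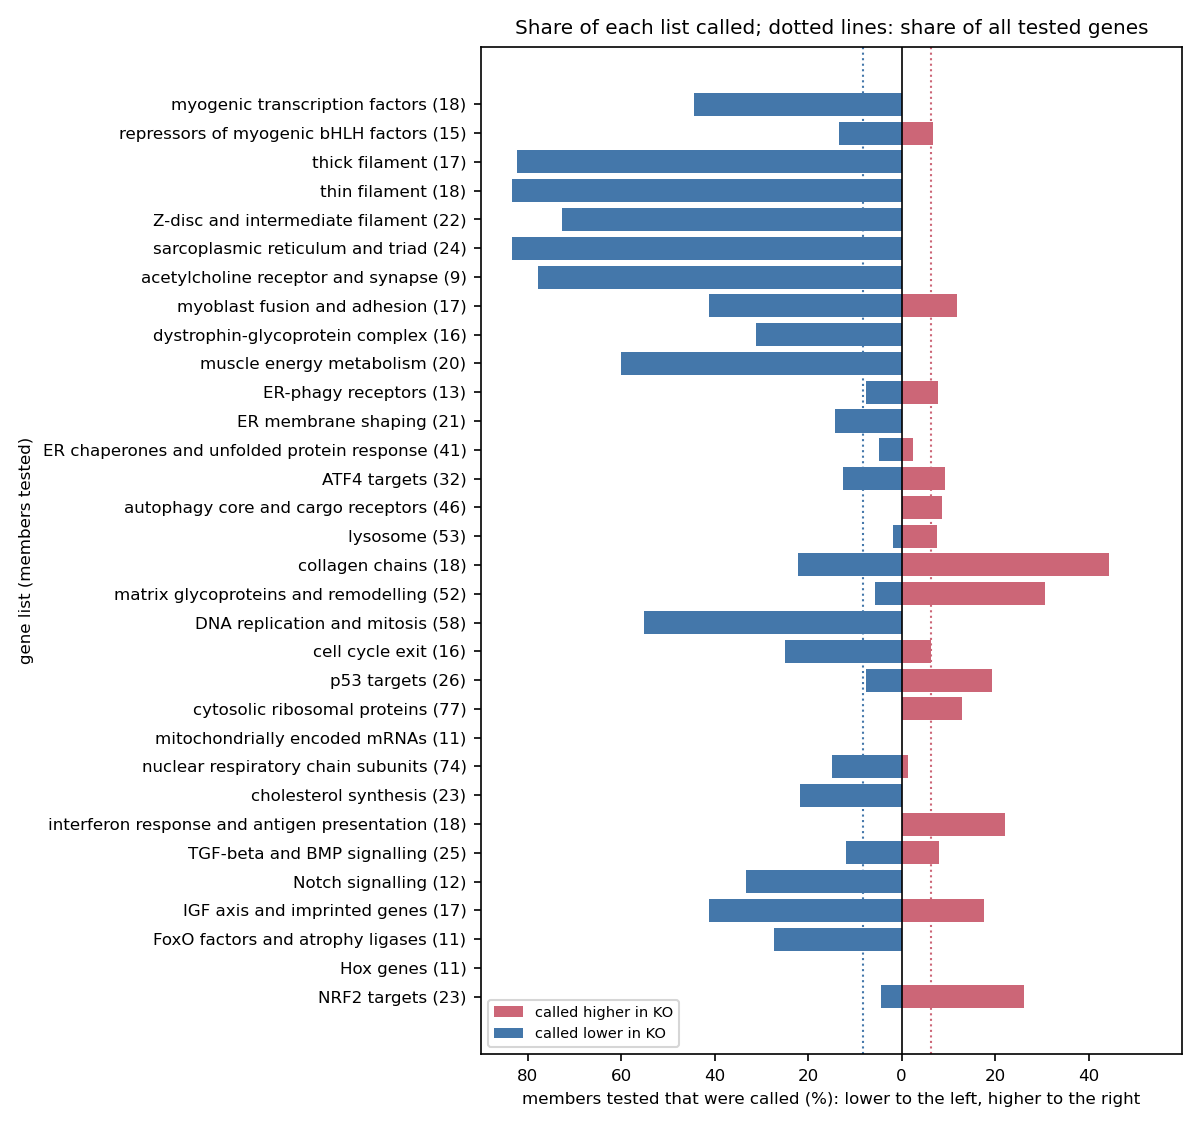
Share of the tested members of each gene list (members tested in brackets) that were called lower (blue, to the left) or higher (red, to the right) in KO myotubes. The dotted lines mark 8.30% and 6.27%, the shares of all tested genes. The thick filament, thin filament, sarcoplasmic reticulum and synapse lists reach 77.8% to 83.3% lower, and the collagen list reaches 44.4% higher.

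The ER and its turnover, where Fam134b acts, moved little as a group. Of 13 ER-phagy receptors and their cofactors tested, only Fam134b, the edited gene, was called lower and only Atl3 higher by limma. The share of 7.69% in either direction lies near the 8.30% lower and 6.27% higher of all genes. Atl3, an atlastin that fuses tubular ER and also serves as a receptor, had normalized counts of 115, 125, 123 and 126 in WT and 238, 251, 215 and 238 in KO myotubes. The samples of each group were close together, and the log2 difference of 0.94 (standard error 0.19, limma adjusted p = 0.00328) kept its call with any 1 sample left out. Calcoco1 had KO samples all above WT (0.48) but was not called (limma adjusted p = 0.10). Rtn3 (0.40), Fam134a (0.46), Tex264 (0.14), Sec62 (-0.06), Ccpg1 (0.61) and Fam134c (-1.37) were not called, and their groups overlapped.

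Of 21 genes that shape ER membranes, 3 were called lower (14.3%, against 8.30% of all genes) and 0 higher, with a median of -0.08. They were Reep6 (-1.52), Rtn2 (-0.79) and Arl6ip1 (-0.69). None was called in the 4 fits that left out WT sample 1, 3 or 4 or KO sample 3. Reep6 had only 16.8 to 27.0 normalized counts in WT and 5.40 to 8.76 in KO samples. Rtn4, the most abundant of them in WT, was at 1707, 688, 1099 and 1072 against 849, 766, 715 and 813, with a limma adjusted p of 0.22.

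Among chaperones and genes of the unfolded protein response, 2 of 41 were called lower (4.88%) and 1 higher (2.44%), against 8.30% and 6.27% of all genes. The median of 0.01 turned to -0.01 under quantile normalization. With 1 sample left out, 1 to 4 were called in either direction. Fkbp14, an ER prolyl isomerase that acts on collagen, was higher (1.36, limma adjusted p = 0.00359). Creld1 (-1.20) and Atf6, a sensor of ER stress (-0.98), were lower. Canx, the abundant chaperone calnexin, had 2164 ± 374 normalized counts in WT and 2055 ± 499 in KO myotubes and was not called (limma adjusted p = 0.83).

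In the list of ATF4, the transcription factor of the integrated stress response, and its targets, 4 of 32 were lower (12.5%) and 3 higher (9.38%). These shares lie near the 8.30% and 6.27% of all genes tested. Leaving out WT sample 3 or 4 gave 2 lower, and leaving out WT sample 4 gave 1 higher. Ddit3, which encodes CHOP, rose from 454 ± 107 to 903 ± 84.3 (SD, n = 4 each), with every KO sample above every WT sample (1.02, limma adjusted p = 0.00361). Sesn2 and Ddit4, inhibitors of mTORC1 signalling, were also higher. Atf4 itself was lower, at 4094, 5306, 3455 and 3469 in KO against 5751, 6993, 9157 and 6043 in WT samples (-0.77, limma adjusted p = 0.0400). Its call was lost in 6 of the 8 fits that left out 1 sample. The others that fell were Vldlr, Fgf21 and Slc7a1, and Vldlr, a lipoprotein receptor, had the most negative difference (-3.52, limma adjusted p = 0.00238).

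In autophagy 4 of 46 genes were called higher (8.70%) and 0 lower, a share near the 6.27% of all genes. These were Gabarapl1 (0.86) and Gabarap (0.78), which sit on the growing membrane, the cargo receptor Sqstm1 (0.84) and Uvrag (0.83). Gabarapl1 was at 337, 677, 544 and 515 in WT and 604, 858, 960 and 1385 in KO samples, and its groups overlapped. None of the 4 was called without WT sample 3 or without WT sample 4. Map1lc3a, an LC3 gene, had 2285 ± 580 and 2055 ± 238 normalized counts and was not called (limma adjusted p = 0.77).

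Of 53 lysosomal genes, 4 were called higher (7.55%) and 1 lower (1.89%), against 6.27% and 8.30% of all genes. The list medians relative to the WT mean were 0.54 and 0.43 in KO samples 1 and 2 but -0.16 and -0.15 in KO samples 3 and 4. WT sample 1 stood at 0.29. Ctns, the cystine exporter of the lysosome, had normalized counts of 25.9, 15.3, 22.3 and 21.8 in WT and 92.9, 198, 59.4 and 67.9 in KO myotubes (2.10, limma adjusted p = 0.00127). Atp6v1a, a subunit of the proton pump, was at 844 to 951 in KO against 374 to 479 in WT samples (1.09, limma adjusted p = 7.09e-04). Ids and Lamp2 were the others that rose. Ctsh, a cathepsin, fell (-2.44, limma adjusted p = 0.0359) and lost its call without any 1 of the 4 WT samples, while Npc2, the most abundant member, had 1932 ± 371 and 2147 ± 292. With 1 sample left out, the count that rose was 2 without WT sample 3 or 4 and 7 without WT sample 1.

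Genes of the extracellular matrix were the main group that rose. Among 18 collagen chains tested, 8 were called higher and 4 lower, with a median of 0.74, and among 52 other matrix and remodelling genes 16 were higher and 3 lower, with a median of 0.36, where 6.27% of all genes were higher. All KO samples lay above all WT samples for only 4 of the 18 collagen chains and below for 2. For the 52 matrix genes these counts were 12 and 3, where 8.72% of all genes lay above and 10.7% below. The rise was uneven between KO samples, since the medians of the collagen list relative to WT were 1.2 and 0.99 in KO samples 1 and 2 but 0.28 and 0.09 in samples 3 and 4. For the matrix list they were 0.84, 0.67, 0.12 and 0.18. Within WT, sample 1 stood at 0.58 and 0.44 for these lists and sample 2 at -0.31 and -0.30.

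Col6a2, a chain of the collagen that surrounds muscle fibers, had normalized counts of 483, 309, 458 and 306 in WT and 1831, 2020, 1108 and 1187 in KO myotubes. All KO samples exceeded all WT samples, and the log2 difference was 1.96 (standard error 0.24, limma adjusted p = 8.90e-05). Its partners Col6a1 (1.43) and Col6a3 (1.85) rose as well, the latter with overlapping groups. Col1a1, the main chain of fibrillar collagen, was at 16226, 9984, 12190 and 12206 in WT and 24700, 21874, 12995 and 12183 in KO samples, and was not called (limma adjusted p = 0.35). Col7a1, Col8a2, Col5a3 and Col18a1 were the collagens called lower, with Col7a1 at 18.0 to 20.4 normalized counts in WT and at most 6.78 in KO samples.

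Thbs2, a matrix protein that limits angiogenesis, was the most positive of the matrix list, with 169, 40.5, 85.5 and 93.1 in WT and 834, 658, 394 and 432 in KO samples (2.67, limma adjusted p = 1.43e-04). Mmp2, the gelatinase that degrades collagen, had 831 ± 64.9 and 2676 ± 728 (1.65), and Fn1, fibronectin, 7201 ± 2983 and 14852 ± 5406 with overlapping groups (1.06, limma adjusted p = 0.0417). Sparc, the most abundant member, was not called (0.55, limma adjusted p = 0.18). The number of matrix genes called higher fell to 9 without WT sample 2 or without KO sample 1 and to 10 without WT sample 4, and that of collagens to 5 without WT sample 3 or 4. The number of collagens called lower fell to 1 without WT sample 1 or KO sample 3.

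Markers of other cell types were examined beside these genes. Of 10 fibroblast markers, 5 were tested, with Dcn (1.57) and Col3a1 (1.03) called higher and 0 lower, and the summed level of the list was 27030 to 29997 normalized counts in WT and 30457 to 45164 in KO samples. Tcf21 was at 0 in all 8 samples. Smooth muscle and myofibroblast markers summed to 7573 to 12012 in WT and 7399 to 14377 in KO samples, with Des, which is also a muscle gene, the only 1 of 7 tested that limma called and Myocd at 0. Adipocyte markers summed to 109 to 202 and 214 to 451, with Lpl called higher (1.62) and Adipoq, Plin1, Cfd and Lep at 0, and chondrocyte markers to 259 to 422 and 384 to 823, almost entirely Sox9 (0.84), with Acan, Col9a1 and Matn1 at 0. No endothelial or macrophage marker passed the filter on low values, and their lists summed to at most 3.45 and 30.0 normalized counts. Cdh5, Tek, Emcn and Tie1 of the former and Adgre1, Itgam and Ptprc of the latter were at 0. Osteoblast markers summed to 44.0 to 87.4 and 26.3 to 82.8, with Alpl, Ibsp and Dlx5 at 0 and none called. Markers of reserve cells, the undifferentiated cells left beside myotubes, were called lower in 4 of 9 cases tested (44.4%, against 8.30% of all genes). These were Spry1 (-2.57), Cxcr4 (-2.23), Notch3 (-1.12) and Cd34 (-1.11). Reserve cell markers summed to 1970 to 3649 in WT and 1203 to 2090 in KO samples. Their part in the matrix and muscle results was not tested.

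**Figure D4:**
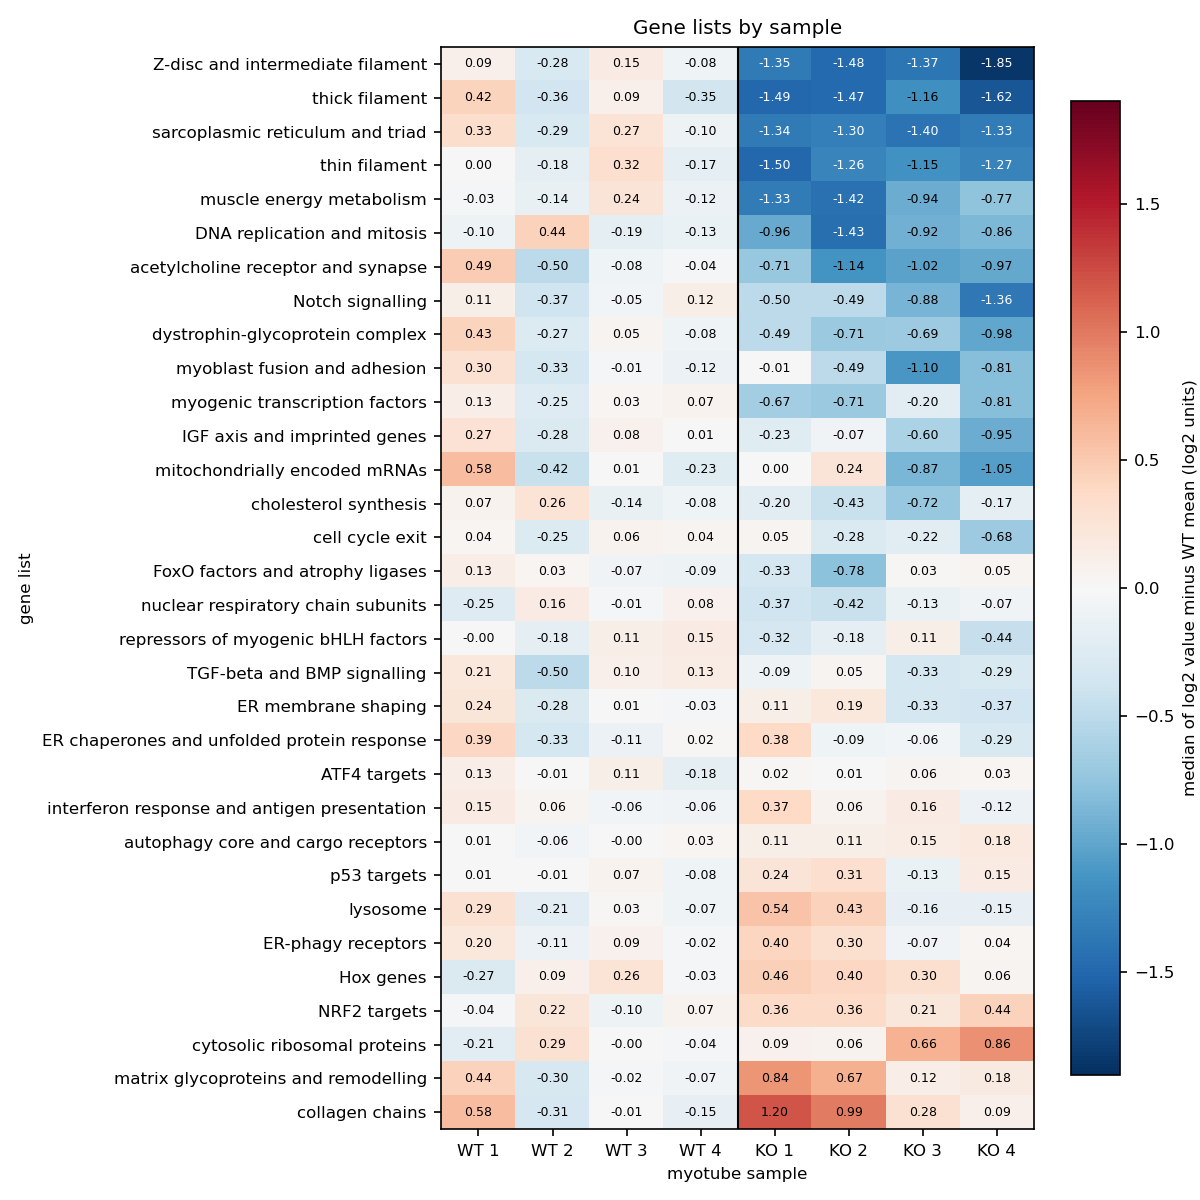
Median over the tested members of each gene list of the log2 value minus the WT myotube mean, in each of the 8 samples (blue lower, red higher than the WT mean). The 4 KO columns are alike for the contractile and sarcoplasmic reticulum lists, while collagen, matrix, lysosome, ribosomal protein and mitochondrially encoded lists separate KO samples 1 and 2 from 3 and 4.

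Cell cycle genes were lower in KO cultures. All 58 genes of DNA replication and mitosis had a negative log2 difference, 32 were called lower and 0 higher by limma, also at an unadjusted p under 0.05, and the median was -1.02. With 1 sample left out the count was 21 to 32, lowest without WT sample 2, whose list median stood 0.44 above the WT mean. Mki67, the protein Ki-67 of cycling cells, had 159, 223, 255 and 163 normalized counts in WT and 45.5, 45.2, 75.6 and 67.9 in KO myotubes (-1.76, limma adjusted p = 2.97e-04). Top2a, the topoisomerase that untangles chromosomes, was the most abundant member and fell from 1359 ± 330 to 642 ± 117. Gins1, part of the replicative helicase, had the most negative called difference (-2.90, limma adjusted p = 0.00803), from 30.2 to 40.9 in WT to at most 11.7 in KO samples.

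Genes of cell cycle exit were lower in 4 of 16 cases (25.0%, against 8.30% of all genes) and higher in 1 (6.25%, against 6.27%). Only 2 were lower without WT sample 3 or 4. Cdkn1a, the inhibitor p21 that holds myotubes out of the cycle, had 5203, 5124, 6696 and 5255 normalized counts in WT and 2870, 3273, 3405 and 3529 in KO myotubes (-0.76, limma adjusted p = 0.0199), a call lost without WT sample 3, WT sample 4 or KO sample 1. Ccnd3, the cyclin D that stays on in differentiated muscle, differed by -1.61, and Ccnd2 by -3.40, from 31.9 to 57.6 in WT to 7.99 or less in KO. Btg2, an antiproliferative gene, was higher (0.75) and lost its call in 7 of the 8 fits with 1 sample left out. Of 26 targets of p53, 5 rose (19.2%, against 6.27% of all genes) and 2 fell (7.69%, against 8.30%), with a median of 0.00. Perp (5.21), Trp53inp1 (1.38), Sesn1 (1.13), Zmat3 (0.81) and Ccng1 (0.70) rose, and Cdkn1a and Pmaip1 (-4.75) fell. Pmaip1, the pro-apoptotic protein Noxa, had 88.1, 59.4, 92.0 and 102 normalized counts in WT and 7.75, 0, 2.70 and 2.0 in KO samples.

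The insulin-like growth factors moved in opposite directions. Igf1 had normalized counts of 18.1, 14.4, 20.4 and 21.8 in WT and 161, 104, 127 and 126 in KO myotubes, a log2 difference of 2.72 (standard error 0.27, limma adjusted p = 1.54e-05). Igf2, the related ligand that muscle cells make as they differentiate, went the other way, with 277 ± 91.6 in WT and 68.7 ± 15.3 in KO myotubes (SD, n = 4 each; -1.97, limma adjusted p = 1.40e-04). The binding proteins split likewise, with Igfbp4 higher (2.03) and Igfbp5 (-2.21) and Igfbp2 (-1.22) lower, and the adaptor Irs1 was higher (1.13). In all, 3 of 17 genes of the list of this axis and imprinted genes were called higher (17.6%, against 6.27% of all genes). In the same list 7 were lower (41.2%, against 8.30%).

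Imprinted genes made up part of the lower group. H19, a long noncoding RNA beside Igf2, was the gene with the highest normalized counts in WT myotubes, at 83527, 127916, 117888 and 124757, and had 21313, 17933, 20250 and 33514 in KO samples. The highest KO sample was far below the lowest WT sample, and the log2 difference was -2.31 (standard error 0.34, limma adjusted p = 3.61e-04). Mest differed by -2.60, from 33.3 to 111 in WT to 4.00 to 24.2 in KO samples, and Peg3 by -0.71 with overlapping groups. Igf2r, which removes Igf2 from the surface, was at -2.31.

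In signalling of the TGF-beta family 3 of 25 genes were lower and 2 higher, and 1 was higher without WT sample 1 or 3. Fst, follistatin, which binds and blocks myostatin and activins, fell from 136, 34.2, 94.8 and 104 to 14.5, 24.8, 11.7 and 9.99 (-2.44, limma adjusted p = 0.00123). The co-repressor Skil (-1.24) and the receptor Acvr2b (-2.24) were also lower, while Tgfbr3, a co-receptor, was higher (2.29, limma adjusted p = 0.00233). Among 11 FoxO factors and atrophy ligases, Trim54 (-2.17), Trim63 (-1.50) and Foxo1 (-0.81) were lower (27.3%, against 8.30% of all genes), of which Trim54 binds the sarcomere. Only 1 was called lower in 5 of the 8 fits that left out a sample. Of 11 Hox genes 0 were called by limma, with 3 at an unadjusted p under 0.05, and Hoxc10, the most abundant, had 236 ± 52.7 and 263 ± 41.2 normalized counts.

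Genes of translation and respiration differed between the KO samples. Of 77 ribosomal protein genes 10 were called higher (13.0%, against 6.27% of all genes) and 0 lower. The list medians were 0.09 and 0.06 in KO samples 1 and 2 but 0.66 and 0.86 in samples 3 and 4. Rps12 was at 5020, 5711, 4256 and 4390 in WT and 8216, 7556, 11338 and 15506 in KO myotubes (1.09, limma adjusted p = 0.0114), Rps21 at 5522 ± 414 and 10883 ± 1851, and Rps26 at 3832 ± 976 and 8003 ± 2801. Rpl37 had the most positive called difference (1.31). The number called was 5 without WT sample 3 or 4, 6 without WT sample 1 or KO sample 3, 17 without KO sample 1 and 18 without KO sample 2. Ribosomal protein genes have many processed copies, and the share of their last 500 bases found in other genes was 32.7% for Rps12, 28.8% for Rps26 and 94.1% for Rpl36, so these counts are uncertain.

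Of 11 mRNAs encoded by the mitochondrial genome 0 were called by limma, 1 passed an unadjusted p under 0.05, and at most 2 were called with a sample left out. Their list medians were 0.00 and 0.24 in KO samples 1 and 2 and -0.87 and -1.05 in samples 3 and 4, and in WT 0.58 in sample 1 and -0.42 in sample 2. ND1 was at 41057, 22590, 26338 and 23087 in WT and 32822, 19187, 19264 and 18488 in KO samples. Of 74 nuclear genes of the respiratory chain, 11 were called lower (14.9%, against 8.30% of all genes) and 1 higher (1.35%, against 6.27%). Atp5j (-1.35) and Ndufa8 (1.03) were at the ends. Only 4 were lower without WT sample 3 or 4.

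In cholesterol synthesis 5 of 23 were called lower (21.7%, against 8.30% of all genes) and 0 higher. Among these Pmvk, a kinase of the mevalonate pathway, was at 201, 389, 291 and 302 in WT and 102, 70, 74.7 and 134 in KO samples (-1.64, limma adjusted p = 6.20e-04). Lss (-1.42) and the controlling factor Srebf2 (-1.22) were also among them. Of 18 genes of the interferon response and antigen presentation, 4 were higher (22.2%, against 6.27% of all genes) and 0 lower, with a median of 0.07. The 4 were Rtp4 (1.99), Psmb8 (1.68), Ddx58 (1.36) and Irf1 (1.11). B2m, the light chain of MHC class I, was not called (0.12). Rtp4 rested on 1.98 to 14.7 normalized counts in WT, and 2 of the list were called without WT sample 4.

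Targets of NRF2, the factor of the oxidative stress response, were higher in 6 of 23 cases (26.1%, against 6.27% of all genes). They were lower in 1 (4.35%, against 8.30%), with a list median of 0.35. Aldh3a1, an aldehyde dehydrogenase, had normalized counts of 36.3, 34.2, 32.5 and 38.6 in WT and 207, 420, 342 and 182 in KO myotubes (2.91, limma adjusted p = 9.92e-06). The glutathione transferases Gstm2 (2.14) and Gstm1 (1.12), catalase Cat (0.86) and malic enzyme Me1 (0.80) followed. Fth1, the ferritin heavy chain, was at 12970 ± 1589 and 25198 ± 7206 (0.92, limma adjusted p = 0.0429), a call lost in 6 of the 8 fits without 1 sample. Txn1, thioredoxin, was the member that fell (-0.98), with KO sample 4 at 502 and the other KO samples at 1083 to 1164, a call lost without WT sample 3 or 4.

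A few genes were nearly silent in WT myotubes and high in all KO samples. Aff3, a nuclear protein of transcription elongation complexes, had 0, 1, 0 and 0 reads in WT and 89, 96, 96 and 91 in KO samples. The ratio of levels was 487 with an exact 95% counting interval of 86.8 to 19267, which covers counting error only. Slc1a3, the glutamate transporter of glia, was at 7.77, 3.60, 6.51 and 6.94 normalized counts in WT and 897, 667, 525 and 631 in KO samples (6.58, standard error 0.28, limma adjusted p = 1.73e-09). Rhox5, a homeobox gene of the X chromosome, was at 16.4, 26.1, 2.79 and 7.93 against 841, 794, 878 and 911 (6.25). The KO samples of Rhox5 differed little from each other.

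The next were Adh1, an alcohol dehydrogenase, and Perp, a membrane protein of cell junctions. Adh1 had 6 reads over the WT samples and 320 over the KO samples, a ratio of 69.8 (interval 31.7 to 191), and Perp 7 and 301 reads, a ratio of 56.2 (interval 27.0 to 141). Nkd2, an inhibitor of Wnt signalling, was at 4.32 to 18.6 and 301 to 467 normalized counts (5.27). C1s1, a complement protease, had a difference of 5.04 and shares 37.6% of its transcript ends with other genes. Fbln7, a matrix protein, was uneven between KO samples at 106, 23.3, 30.6 and 146 (4.28).

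Neural and glial markers were called higher in 2 of 3 cases tested, Slc1a3 and the microtubule protein Map2 (1.65), and summed to 82.9 to 107 normalized counts in WT and 763 to 1180 in KO samples, most of it Slc1a3, with Rbfox3 and Sox10 at 0. Among abundant genes Car3, a carbonic anhydrase of slow muscle and fat, had 855, 1088, 1101 and 1022 normalized counts in WT and 3512, 4223, 4702 and 7158 in KO myotubes. All KO samples were at least 3 times as high as any WT sample, and the log2 difference was 2.22 (standard error 0.23, limma adjusted p = 2.36e-05).

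The genes with the most negative differences, among those without overlap and with at least 50 normalized counts in WT, were Cnr1, Pmaip1, Mgl2, Stc1, Ctsc, Epb41l4a, Pnmal2 and Medag. Cnr1, the cannabinoid receptor, had 232 reads over the WT samples and 1 over the KO samples, a ratio of 177 with a counting interval of 31.5 to 7037. Mgl2, a lectin known from macrophages, had 220 and 5 reads, a ratio of 33.6 (interval 14.2 to 105), and shares 19.8% of its transcript ends with other genes. Ctsc, a lysosomal protease, had 430 and 13 reads, a ratio of 25.3 (interval 14.6 to 47.9). Stc1, a secreted glycoprotein, was at 0, 0, 9.0 and 20 in KO samples and at 46.6 to 109 in WT. Pnmal2 was the most abundant of them, with 280, 305, 393 and 312 normalized counts in WT and 10.6, 33.6, 19.8 and 18.0 in KO samples (-4.01, limma adjusted p = 8.28e-07). Epb41l4a (-4.07) and Medag (-3.97) showed the same separation of the groups.

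Among genes with a mean of at least 50 normalized counts in KO myotubes, the 6 with the largest spread of log2 values among KO samples each had their lowest value in KO sample 4. Ctnnd1, p120 catenin, had 107, 42.3, 137 and 0 normalized counts in KO samples, and Ccdc53, a subunit of the WASH complex, 92.0, 43.8, 94.5 and 2.0. In both the shallow samples 2 and 4 were lowest, and neither was called. Ctnnd1 shared 48.9% of its transcript ends with other genes, so its counts are uncertain. Olfml2b, F2r, Fh1 and Commd1 were at 2.0 to 12 in KO sample 4, and none was called by limma (adjusted p = 0.56, 0.12, 0.33 and 0.081).

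The myotube differences were then set beside those between KO and WT myoblasts, whose means use none of the same samples. The myoblast calls came from the fit of all 16 samples, on genes filtered by their myotube values. The spread behind these calls thus included the myotube samples, so the overlap of calls is not an independent comparison. On the same 10269 genes, 1608 were called in myoblasts (15.7%), 735 higher and 873 lower. In that fit of 16 samples 2396 were called in myotubes, 1024 higher and 1372 lower. The 644 and 852 myotube genes below came from the fit of 8 samples, so the overlaps are between unlike fits. Of the 644 genes higher in KO myotubes, 297 (46.1%) were also called higher in myoblasts and 7 lower, and these 297 were 40.4% of those higher in myoblasts. Of the 852 lower, 441 (51.8%) were lower in myoblasts too and 3 higher, which was 50.5% of those lower in myoblasts. The difference between the stages was tested as an interaction in 1 model of the 16 samples, which called 368 genes (3.58%), 216 with a more positive and 152 with a more negative difference in myotubes.

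For muscle genes the gap between the genotypes was often narrower in myotubes on the log2 scale. In normalized counts the thick filament list had a wider gap in myotubes. It summed to means of 18.0 in KO and 1495 in WT myoblasts, and of 8252 and 23285 in KO and WT myotubes. In the 7 muscle lists, 39 of 126 genes had a called interaction with a more positive difference in myotubes and 7 with a more negative one. The median difference was -1.81 in myoblasts and -1.21 in myotubes. Mylpf had 5.51 normalized counts in KO and 1010 in WT myoblasts, a log2 difference of -7.31 that stood at -1.66 in myotubes (interaction 5.64, limma adjusted p = 2.13e-11). Synpo2l had 3.83 and 673 in myoblasts (interaction 5.84). Myog had no read in any KO myoblast sample and 114 normalized counts in WT myoblasts, and its interaction was 6.32 (limma adjusted p = 1.41e-11).

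Other muscle genes differed at the myotube stage more than before. Tpm2 had 3102 normalized counts in KO and 2739 in WT myoblasts, with a difference of 0.18 there and an interaction of -1.28 (limma adjusted p = 0.00493). Actn2 was at or below 0.231 in both groups of myoblasts, so its interaction of -3.47 (limma adjusted p = 0.0457) has no measurable myoblast level behind it. Des showed the same size of difference at both stages, -1.97 and -1.71, and its interaction was not called (0.26, limma adjusted p = 0.65).

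**Figure D5:**
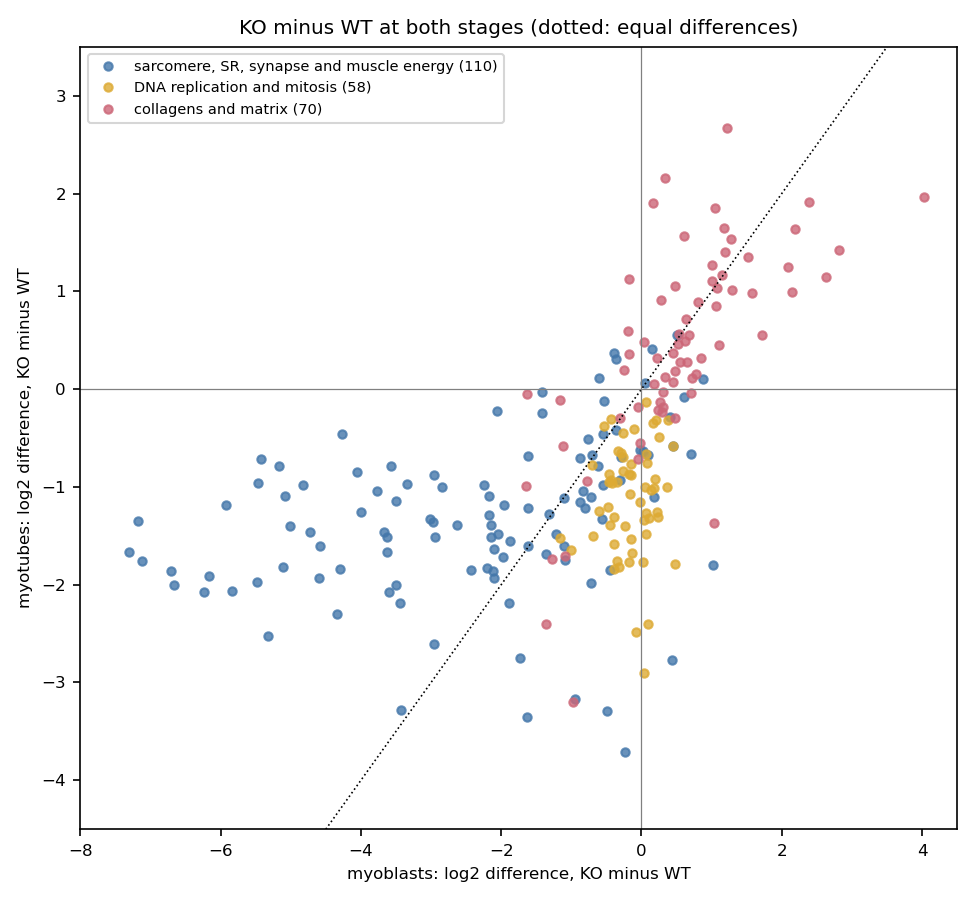
Each point is 1 gene of the contractile, sarcoplasmic reticulum, synapse and muscle energy lists (blue, 110 genes), of DNA replication and mitosis (yellow, 58) or of the collagen and matrix lists (red, 70), with the log2 difference KO minus WT in myoblasts on the horizontal and in myotubes on the vertical axis. Many blue points lie far to the left of the dotted line of equal differences, and the yellow points lie below 0 in myotubes around a myoblast median of -0.15.

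The cell cycle difference was larger in myotubes than in myoblasts. In DNA replication and mitosis, 4 of 58 genes were called lower in myoblasts with a median of -0.15, and 15 had a called interaction, all 15 more negative in myotubes. Mki67 had 267 normalized counts in KO and 305 in WT myoblasts (interaction -1.58, limma adjusted p = 0.00537), and Mcm5, a subunit of the replicative helicase, 1161 and 1114 (interaction -1.54). Cholesterol synthesis had 3 interactions of this kind, in Pmvk, Lss and Srebf2.

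ATF4 targets differed in KO myoblasts more than in KO myotubes. In KO myoblasts 21 of 32 were called higher, with a median of 0.83, compared with 3 of 32 and 0.06 in myotubes. The counts are from unlike fits, of 16 samples for myoblasts and of 8 for myotubes. The 8 called interactions in this list were all negative, in Trib3, Asns, Chac1, Psph, Shmt2, Aldh1l2, Wars and Pck2. Trib3, a pseudokinase induced by ER and amino acid stress, differed by 2.58 in myoblasts and 0.29 in myotubes, and Asns, asparagine synthetase, by 1.5 and -0.09. Atp6v1a (interaction 1.14), Ctns (2.02) and Car3 (1.63) were more positive in myotubes, each with a limma adjusted p for the interaction under 0.05, at 0.00165, 0.0236 and 3.96e-04.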

How the data were processed

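Single-end libraries were made from total RNA of C2C12 myoblasts and myotubes and sequenced by a commercial digital mRNA-seq service. The authors trimmed the reads, removed ribosomal and phiX sequence, aligned them to mouse genome mm10 with STAR 2.6.0a and counted them per gene with HTSeq. The deposited values are log2(normalized count + 1), and the tool that normalized them is not given in the sources used here. The value minus its pseudocount was a whole multiple of a step of its sample, which gave the number of reads behind each value (tolerance 0.02 reads). Of 31053 genes, 74 carried no symbol.

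Samples were grouped by their titles, because the genotype field of the labels reads unknown. Differences were fitted with limma 3.58.1 (R 4.3.3, trended empirical Bayes) on the deposited log2 values of the 8 myotube samples, with Benjamini-Hochberg adjustment over the 10269 genes that reached 10 normalized counts in 4 or more samples. A gene was called at an adjusted p under 0.05. The interaction and the calls in myoblasts came from 1 fit of group means over all 16 samples on the same genes. A log2 difference understates the change of genes with few reads because of the pseudocount of 1. Ratios between groups with few reads were computed from the reads, and their intervals are exact at a confidence level of 95% and cover counting error only.

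The members and the gene lists were chosen with earlier results of these data known. Genes were named by a rule: Fam134b, the 8 most positive and 8 most negative called genes without overlap and with a mean of at least 50 normalized counts in the higher group, the 5 in each direction with the largest difference of means, the called member at either end and the most abundant member of each list, the called markers, and the 6 genes with at least 50 normalized counts and the largest SD among KO samples. Other list members named in the text were chosen after their values were seen. The deviations of WT and KO samples with the same number correlated for number 1 but not for numbers 2 to 4, so the numbers were not used as pairs. Alternatives were a fit of all samples, sample weights, other scalings, other filters and thresholds, a replicate block and each sample left out in turn. The fit without the 2 shallow KO samples was chosen after seeing the data. A few of the named genes are not reported here.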

Additional observations from a re-analysis of the deposited data

Results flagged for a closer look

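Among 109 genes named by the rule, each group of 4 myotube samples was searched for a sample that stood far from the other samples of its group (by Dixon's ratio of gap to range, at its 95% critical value). Such a sample was found in 18 of 218 groups. Chance gives about 1 in 20 for groups not chosen by their values, a rate that is not valid here, since 6 of the genes were chosen for their spread among KO samples and a group with 1 read in 1 sample and none in the others meets the criterion by construction. In genes with few reads these were the normalized counts of 0.90 for Aff3 and 0 for Fbln7 in WT sample 2, 0.90 for Cnr1 in KO sample 3, and 0 for Actn2, Ctsh and Ccnd2 in KO sample 2. WT sample 2 also stood apart for Rps26 (5285) and Cd34 (36.9), and WT sample 3 for Tnnt3 (2786) and Cdkn1a (6696). KO sample 1 stood apart for Ncam1 (1326) and ND1 (32822), and KO sample 3 for Heyl (15.3). The shallow KO sample 4 stood apart for Bin1 (805), Hes6 (829), Txn1 (502), Olfml2b (2.0) and Fh1 (12).

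The difference between KO and WT changed with the stage in 24 of the 109 genes by the interaction test of limma. For muscle genes the log2 interaction, myotubes minus myoblasts, was 6.32 for Myog, 5.84 for Synpo2l, 5.64 for Mylpf, 5.36 for Tnnc2, 4.16 for Tnnt3, 2.12 for Tnnt2 and 0.94 for Rapsn, and it was -1.28 for Tpm2 and -3.47 for Actn2. It was positive as well for Cd34 (2.06), Ctns (2.02), Spry1 (1.86), Igf1 (1.65), Car3 (1.63), Pnmal2 (1.61), Aldh3a1 (1.6), Rpl37 (1.45), H19 (1.31) and Hes6 (0.97). Negative values were found for Gins1 (-2.93), Reep6 (-2.67), Col6a2 (-2.06), Pmvk (-1.58) and Txn1 (-1.26).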

How the results depend on the processing

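All 1496 called genes kept their sign under every alternative in which they were tested (1092 were tested at a minimum of 50 normalized counts). They were selected on these same samples, so a kept sign is no independent test. Of the 1496, 848 were still called without WT sample 3 and 887 without WT sample 4. The number called was 2396 (1024 higher, 1372 lower) with all 16 samples fitted, 2523 (1107 higher, 1416 lower) with 1 weight per sample, and 691 (319 higher, 372 lower) at an adjusted p under 0.01, and 405 higher genes differed by at least 1 on the log2 scale. With 1 sample left out it was 853 to 1630 (393 to 694 higher, 460 to 936 lower), lowest without WT sample 3 and at 889 without WT sample 4, and why these 2 samples counted most was not tested. The interaction then called 245 to 510 genes, 245 without WT sample 3. Without both shallow KO samples 3653 genes did not overlap, where by construction fewer samples have to lie on 1 side. Without a filter 1682 were called, with a minimum of 50 there were 1113, and under total, median-ratio and quantile scaling 1432, 1501 and 1605, the last moving the median of all genes from -0.06 to 0.00 and the share higher from 43.0% to 48.2%. The log2 difference of Fam134b stayed between -2.67 and -2.29 with 1 sample left out.

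Of the 85 called genes named by the rule, 66 kept the call without any 1 sample and 19 lost it at least once, all 19 without WT sample 3 and 17 without WT sample 4. They were Atf4, Btg2, Cd34, Cd36, Cdkn1a, Col3a1, Ctsh, Fth1, Gabarapl1, Musk, Myh7b, Rapsn, Rbfox1, Reep6, Rps12, Rps26, Rtp4, Sox9 and Txn1. The genes that turned direction were all uncalled, and the cause was not tested. Without both shallow samples Dag1 was at 0.039, Cox6c at -0.052, Eif4ebp1 at 0.13, Ctnnd1 at 0.28, Olfml2b at 0.57 and Fh1 at 0.049. Cox6c was at -0.20 under quantile normalization and at -0.017 with 1 weight per sample, where Eif4ebp1 was at 0.091. With 1 sample left out the ranges were -0.17 to 0.11 for Dag1, -0.20 to 0.079 for Canx, -0.29 to 0.017 for Map1lc3a, -0.072 to 0.11 for Cox6c, -0.078 to 0.30 for B2m, -0.18 to 0.19 for Eif4ebp1 and -1.49 to 0.36 for Olfml2b.

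With the replicate block 1532 genes were called, 1400 of them among the 1496, and 363 interactions. The deviations of WT and KO samples with the same number correlated at 0.41, -0.10, -0.02 and -0.09. A level of 2.59 to 5.99 normalized counts equals 3 reads, which limits what could be seen in genes of low level.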
